A study of Gallus gallus with 24 samples.

Results

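Jejunum gene expression was compared between 2 chicken lines in birds that had received no injection. HASN denotes the 6 birds of the HAS line labelled as not injected, and LASN the 6 birds of the LAS line labelled as not injected. The lines were selected apart for antibody response against sheep red blood cells, HAS upward and LAS downward. Every bird gave 1 RNA sequencing library, so the comparison rests on 12 of the 24 libraries of the series. The other 12 came from injected birds of the same lines, HASI and LASI, 6 each. All 24 labels carry the same time of 5 days post injection, the uninjected birds included. No allele, transgene, sex or age is given for any bird, and no agent is given for HASN or LASN. The lines may differ at many loci, so the effect of any 1 locus cannot be told apart from that of the rest of the genetic background.

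The jejunum is the middle part of the small intestine, lined by enterocytes that absorb sugars, peptides and fats, with lymphocytes among and beneath them. In chickens the major histocompatibility complex (MHC) lies on chromosome 16 and is compact. It holds a minor and a major class I gene (BF1 and BF2), class II beta chain genes (BLB1 and BLB2) and the BG genes, a butyrophilin-like family. Classical class I and class II molecules present peptides to T cells, and chicken lines commonly carry different MHC haplotypes. Chicken Ig-like receptors (CHIR) are leukocyte receptors, and sialyltransferases such as ST3GAL4 add sialic acid to the ends of sugar chains.

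Values are TPM, a relative transcript abundance scaled by length that sums to nearly the same total in every library. A gene was tested when it reached 0.5 TPM in at least 6 of the 24 libraries, which 13279 of the 15618 listed genes did. Fold changes are differences of mean log2(TPM + 1), HASN minus LASN, so they understate the change of genes near 1 TPM or below. A gene was called when its p-value from limma, adjusted over all tested genes by Benjamini and Hochberg, was below 0.05. Read counts are not used here, so the depth behind each value is unknown. In whole tissue, fewer cells of a type and less RNA per cell cannot be told apart.

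Enterocyte markers were high in both groups. The intestinal fatty acid binding protein FABP2 had a lowest, median and highest level of 3808, 5095 and 7512 TPM in HASN, against 6142, 8464 and 9444 TPM in LASN. The brush border protein VIL1 had 1052, 1307 and 1398 TPM in HASN, against 929, 1050 and 1170 TPM in LASN. The stomach markers PGA5 and GKN2 and the pancreas markers CPA1, CELA2A and CTRB2 stayed below 0.5 TPM in every library. Of the liver markers, ALB and APOH stayed below 1 TPM, while FGB had 5.41 to 15.4 TPM in HASN, against 2.56 to 22 TPM in LASN, and TTR had 0.919 to 3.27 TPM in HASN, against 2.0 to 5.56 TPM in LASN. The ileal bile acid binding protein FABP6 reached 5930 TPM in LASN replicate 6 alone. It was at 2.86 to 490 TPM in the other LASN libraries and at 32.4 to 181 TPM across the 6 HASN libraries. Its median was 58.9 TPM in HASN and 49.8 TPM in LASN.

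The HASN libraries fell into 2 sets. Replicates 1 to 3 correlated at 0.973 to 0.981 with each other and replicates 4 to 6 at 0.967 to 0.979, but the sets correlated at only 0.833 to 0.937 with one another, against 0.951 to 0.983 within LASN. In 69.3% of tested genes the 2 sets did not overlap, with replicates 1 to 3 lower in 7944 genes and higher in 1252. Regressed over genes on the log2 of their genomic span, log2(TPM + 1) had a slope of -0.21, -0.27 and -0.23 in HASN 1 to 3 and 0.014, -0.015 and 0.023 in HASN 4 to 6, against -0.12 to 0.024 in LASN. The 13 mitochondrially encoded genes took 19.7% to 23.4% of TPM in HASN 1 to 3 and 11% to 15.8% in HASN 4 to 6, against 9.54% to 18.2% in LASN. Across 6 such library measures HASN and LASN did not differ beyond the spread between birds (exact two-sided permutation p = 0.247 to 0.606). Genes of the female-specific W chromosome were high in 3 of 6 HASN and 3 of 6 LASN libraries, so both groups held the same mix in this respect. The part of the split in the results was not tested, and calls of named genes that end without HASN 1 to 3 are given with that value.

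**Figure D1:**
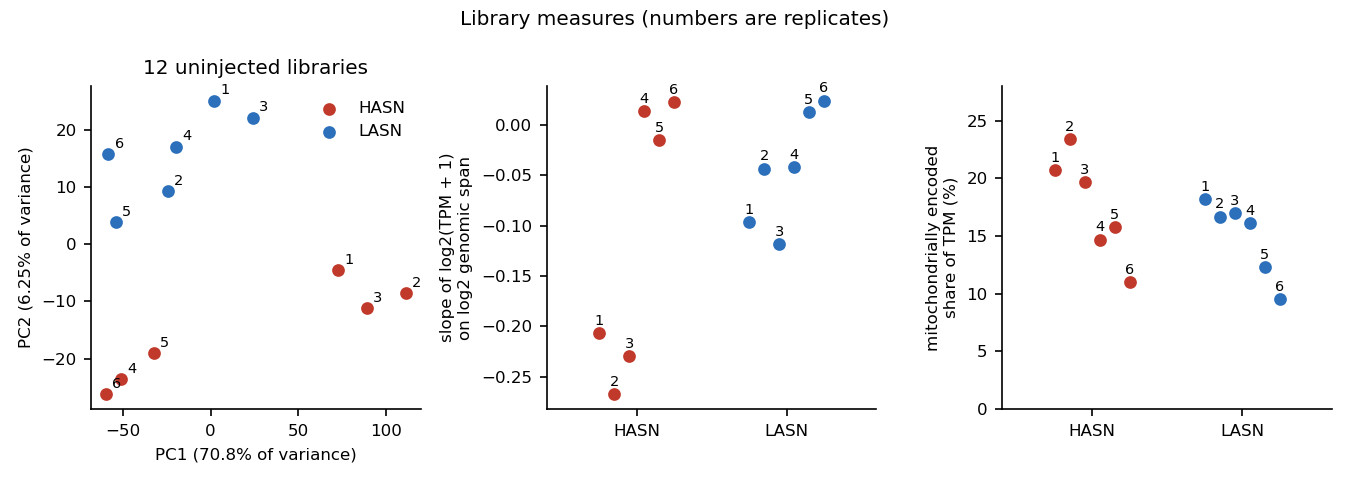
Left, principal components of log2(TPM + 1) over the 12 uninjected libraries, HASN red and LASN blue, numbered by replicate; middle and right, the slope on genomic span and the mitochondrially encoded share of TPM (%) by library. The first component, 70.8% of the variance, separates HASN replicates 1 to 3 from HASN 4 to 6, and HASN and LASN separate on the second, 6.25%.

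Of 13279 tested genes, 156 were called (1.17%), 44 higher in HASN (0.331%) and 112 lower in HASN (0.843%). The test pooled the spread of each gene over all groups of the series, injected birds included. The spread was not equal between the groups compared. The median within-group SD on the log2 scale was 0.50 in HASN and 0.32 in LASN, and 80.3% of genes had the larger SD in HASN. The adjusted p-values therefore do not measure the spread among HASN and LASN birds alone. Of the 156 genes, 91 had groups that did not overlap, 66 lower and 25 higher, while 109 of all tested genes (0.821%) lay wholly lower in HASN and 52 (0.392%) wholly higher. The differences were mostly moderate, with 14 genes beyond 2 on the log2 scale, 73 between 1 and 2 and 69 under 1. Called genes were low in level, with a median of 5.49 TPM against 17.6 TPM over all tested genes. Genes without a symbol made up 66 of the 156 called genes (42.3%), against 18.1% of tested genes.

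The balance of directions depended on scale. Over all 13279 genes the log2 fold change had a median of -0.19, so a value is best read against that shift. After rescaling of the libraries by median ratios, which moved that median to 0.0052, 77 genes were called higher and 87 lower in HASN. Without HASN 1 to 3 the median was 0.16, with 60 called higher and 58 lower. With only the 12 uninjected libraries fitted, 67 genes were called (0.505%), of which 59 were among the 156. All 156 genes kept their sign without HASN 1 to 3, and 66 of them kept their call there. The genes were called in a fit that held the remaining libraries too, so the kept signs are no independent support. Under every refit apart from a fold threshold 27 of the 156 kept their call, 21 lower and 6 higher, and 8 of these lay on chromosome 16. The 13 of these with a symbol were ANKRD33, BF1, BG8, BLB1, BPIFB3, CFC1, KIRREL3, NTHL1, PACSIN3, RFLNA, ST3GAL4, TP53I3 and VRK2.

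The furthest differences lay side by side on chromosome 24. ST3GAL4 (ENSGALG00000029747, galGal6 chromosome 24, 473593 to 483311, plus strand), which adds sialic acid in an alpha-2,3 link to galactose, had a lowest, median and highest level of 4.75, 6.08 and 8.92 TPM in HASN, against 382, 468 and 639 TPM in LASN. Every HASN library was far below every LASN library. The mean was 6.48 ± 1.63 TPM in HASN and 481 ± 90.6 TPM in LASN (SD, n = 6 each), a log2 fold change of -6.02 ± 0.20 (SE) with a limma adjusted p of 1.03e-15. KIRREL3 (ENSGALG00000029197, 484288 to 720481, minus strand), a cell adhesion protein of the immunoglobulin superfamily, had 0.296, 0.409 and 0.924 TPM in HASN, against 60.3, 69.5 and 97.3 TPM in LASN. Its groups were likewise far apart, with a log2 fold change of -5.60 ± 0.24 (limma adjusted p = 5.03e-14). The models of the 2 genes do not overlap, and 976 bases lie between their facing 3′ ends.

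TIRAP (ENSGALG00000040224, 445576 to 450171, plus strand), an adaptor of Toll-like receptor signalling, had 20.9, 25 and 27.7 TPM in HASN, against 37.4, 42.3 and 46.9 TPM in LASN. The groups did not overlap and the log2 fold change was -0.78 ± 0.10 (limma adjusted p = 4.74e-05). FAM118B (437306 to 446379, minus strand) had 17.9, 18.6 and 20.2 TPM in HASN, against 26.7, 35.0 and 41.9 TPM in LASN, a log2 fold change of -0.83 (limma adjusted p = 0.000468). The TIRAP and FAM118B models overlap on opposite strands, and whether reads were counted by strand is not given in the sources used here, so their values cannot be fully told apart. Both calls ended under median-ratio rescaling, with limma adjusted p = 0.197 for TIRAP and 0.145 for FAM118B. DCPS, which lies between TIRAP and ST3GAL4, averaged 32.9 TPM in HASN and 30.7 TPM in LASN (limma adjusted p = 0.634). Of 17 tested genes within 200 kb of ST3GAL4 and KIRREL3, these 4 were called, against 1.17% of all tested genes. The window was set around called genes, and that choice raises its share of calls. The median log2 fold change of the 17 was -0.17, near that of all genes.

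**Figure D2:**
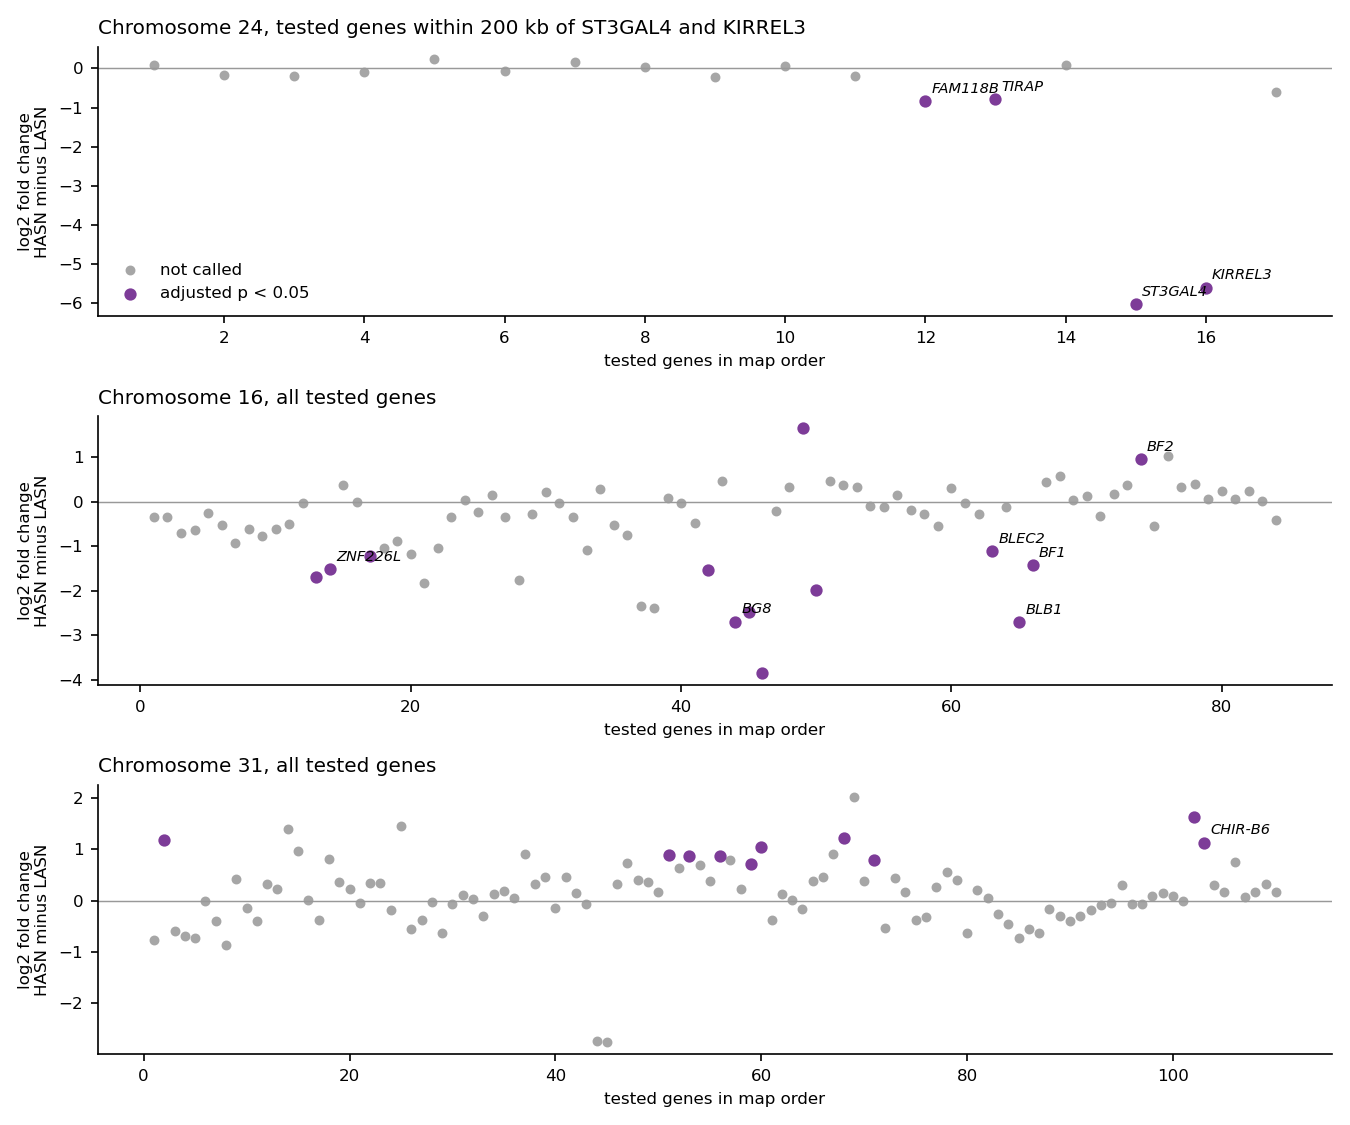
Log2 fold change (HASN minus LASN) of tested genes in map order on chromosome 24 around ST3GAL4, on chromosome 16 and on chromosome 31, with called genes in purple and named where they have a symbol. In the chromosome 24 window, which was set around called genes, 4 of 17 genes were called and all were lower in HASN. On chromosome 16, 11 of 13 called genes were lower in HASN. On chromosome 31 all 10 called genes were higher in HASN.

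Chromosome 16, which carries the MHC, had 13 called genes of 84 tested (15.5%), 2 higher and 11 lower in HASN. BF1 (ENSGALG00000033932, chromosome 16, 2565405 to 2595262), the minor class I gene, had a lowest, median and highest level of 852, 1251 and 1553 TPM in HASN, against 2803, 3233 and 3347 TPM in LASN. BF2 (2606528 to 2609057), the major class I gene, had 6759, 9632 and 12637 TPM in HASN, against 4217, 4997 and 5273 TPM in LASN. Both genes had groups that did not overlap, in opposite directions. BF1 had a log2 fold change of -1.43 ± 0.15 (limma adjusted p = 2.00e-06) and BF2 one of 0.96 ± 0.15 (limma adjusted p = 0.000632). BF1 made up 10.3% to 12.2% of the summed BF1 and BF2 level in HASN, against 37.7% to 42.0% in LASN. The sum averaged 10926 ± 2994 TPM in HASN and 8036 ± 554 TPM in LASN (SD, n = 6 each). BF2 was at 6759 to 8261 TPM in HASN 4 to 6 and at 11003 to 12637 TPM in HASN 1 to 3, and its log2 fold change without HASN 1 to 3 was 0.60 (limma adjusted p = 0.0386).

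BLB1 (ENSGALG00000000141, chromosome 16, 2565094 to 2566926), a class II beta chain gene, had 182, 268 and 317 TPM in HASN, against 1383, 1772 and 1972 TPM in LASN. Its groups did not overlap, with a log2 fold change of -2.71 ± 0.16 (limma adjusted p = 7.73e-11). Its sister copy BLB2 averaged 4736 ± 1222 TPM in HASN and 3109 ± 433 TPM in LASN, which did not pass the test (log2 fold change 0.58, limma adjusted p = 0.138). The summed BLB1 and BLB2 level averaged 5001 ± 1245 TPM in HASN and 4831 ± 612 TPM in LASN. BLB1 made up 4.25% to 8.20% of it in HASN, against 33.4% to 39.3% in LASN. BF1 and BF2, and BLB1 and BLB2, are paralogous pairs. Their sequence identity was not computed, and how reads matching both copies were assigned is not given in the sources used here. Each split between copies is therefore uncertain, and the BF1 model also overlaps those of BLB1 and BLB2.

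**Figure D3:**
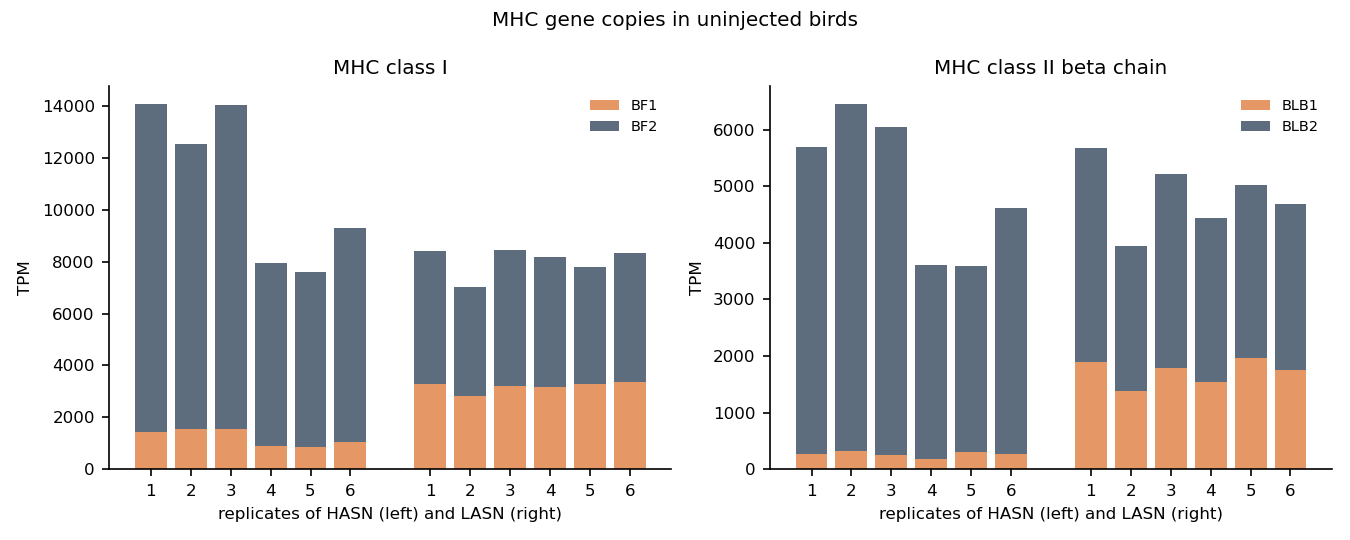
Stacked TPM of BF1 and BF2 (left) and of BLB1 and BLB2 (right) in each library, HASN replicates 1 to 6 left of LASN replicates 1 to 6. BF1 is 10.3% to 12.2% of the class I bar in HASN and 37.7% to 42.0% in LASN, and BLB1 is 4.25% to 8.20% of the class II bar in HASN and 33.4% to 39.3% in LASN.

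In the BG region, BG8 (ENSGALG00000049461, 2283023 to 2395890) had 59.3, 74.5 and 108 TPM in HASN, against 424, 480 and 575 TPM in LASN. The groups did not overlap, with a log2 fold change of -2.70 ± 0.14 (limma adjusted p = 4.97e-12). Its unnamed neighbour ENSGALG00000049448 averaged 6.04 ± 4.42 TPM in HASN and 84.8 ± 11.5 TPM in LASN (limma adjusted p = 3.50e-07). ENSGALG00000050131 averaged 11.3 TPM in HASN and 60.4 TPM in LASN, and ENSGALG00000039480 averaged 45.0 TPM in HASN and 158 TPM in LASN. ENSGALG00000046794, whose model overlaps ENSGALG00000049448 and ENSGALG00000039480, went the other way, at 247, 425 and 676 TPM in HASN, against 104, 131 and 160 TPM in LASN (log2 fold change 1.65 ± 0.23, limma adjusted p = 0.000183). BG8 overlaps ENSGALG00000049448 and ENSGALG00000050131 but neither of the other two, and reads of overlapping models may have been divided among them, so the value of each is uncertain. The C-type lectin-like gene BLEC2, next to the class II genes, was low, at 0.642 ± 0.469 TPM in HASN and 2.50 ± 0.827 TPM in LASN, and its call ended when only the 12 uninjected libraries were fitted (limma adjusted p = 0.0501) or without HASN 1 to 3 (0.0649).

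Further along chromosome 16, the zinc finger gene ZNF226L averaged 0.716 ± 0.902 TPM in HASN and 3.82 ± 2.07 TPM in LASN, and its neighbour ENSGALG00000052876 averaged 1.70 ± 1.66 TPM in HASN and 6.95 ± 1.52 TPM in LASN. Both were called lower in HASN. HASN replicate 4 was the highest HASN library for each, at 2.50 TPM for ZNF226L, which lay inside the LASN range, and at 5.04 TPM for ENSGALG00000052876, which lay just under it. Without HASN 1 to 3 neither call held (limma adjusted p = 0.173 for ZNF226L and 0.0551 for ENSGALG00000052876). MHCIY, a nonclassical class I gene, averaged 23.0 TPM in HASN and 45.0 TPM in LASN and did not pass the test (limma adjusted p = 0.120).

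The class I list with peptide loading genes had 2 of 10 members called, BF1 lower and BF2 higher, with a median log2 fold change of -0.10. The class II list had 1 of 8 called, BLB1, with a median of 0.16. The list of BG and lectin-like genes had 2 of 11 called, BG8 and BLEC2, both lower, with a median of -0.21. Those medians stand beside -0.19 for all tested genes, where 1.17% were called.

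Chromosome 31 had the second highest share of called genes after chromosome 16, 10 of 110 tested genes (9.09%), and all 10 were higher in HASN. Of its tested genes 92 had no symbol, as did 9 of the 10 called. The called genes were low, with group means of 0.860 to 4.82 TPM in HASN and 0.107 to 1.81 TPM in LASN. CHIR-B6 (ENSGALG00000045473, 5740385 to 5741625), a receptor of the chicken Ig-like family, had 1.29, 2.01 and 3.17 TPM in HASN, against 0, 0.423 and 1.46 TPM in LASN. The groups overlapped only in LASN replicate 5, which stood above HASN replicate 5. Its log2 fold change was 1.13 ± 0.23 (limma adjusted p = 0.0111). Of the 4 CHIR symbols tested it was the only one called. CHIR-A2 averaged 0.482 TPM in HASN and 0.141 TPM in LASN, CHIR-B5 1.15 TPM in HASN and 0.585 TPM in LASN, and CHIR-B3 0.981 TPM in HASN and 1.01 TPM in LASN, and none of these 3 passed the test.

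Its unnamed neighbour ENSGALG00000055001 (5698446 to 5700571) averaged 4.82 ± 1.45 TPM in HASN and 1.03 ± 1.08 TPM in LASN, a log2 fold change of 1.63 ± 0.31 (limma adjusted p = 0.00531). ENSGALG00000042500 averaged 4.75 ± 1.39 TPM in HASN and 1.81 ± 0.85 TPM in LASN (limma adjusted p = 0.0149). The median log2 fold change of the chromosome was 0.15 with all libraries and 0.36 without HASN 1 to 3, where 9 of its genes were called. Only 4 of the 10 calls held when the 12 uninjected libraries were fitted alone, among them ENSGALG00000055001 (limma adjusted p = 0.037) but not CHIR-B6 (0.0634). CHIR genes form a family of closely similar copies, and how shared reads were assigned is not given in the sources used here, so the level of each is uncertain.

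Shorter runs of neighbouring called genes lay elsewhere. On chromosome 6, a window was taken from 200 kb before ENSGALG00000043130 to 200 kb past ENSGALG00000031497. Of its 6 tested genes, none with a symbol, 4 were called, all lower in HASN, against 1.17% of all tested genes called. The window was set around called genes, and that choice raises its share of calls. Without HASN 1 to 3, 2 were called. ENSGALG00000043130 (730713 to 973717) has a model that overlaps those of the other called genes there. It had 2.21, 5.13 and 9.55 TPM in HASN, against 10.4, 37.3 and 46.2 TPM in LASN. Its groups did not overlap, with a log2 fold change of -2.34 ± 0.34 (limma adjusted p = 0.000276). ENSGALG00000040055 averaged 12.6 ± 6.08 TPM in HASN and 41.6 ± 9.43 TPM in LASN. ENSGALG00000031497 averaged 0.31 TPM in HASN and 4.24 TPM in LASN. Its call ended without HASN 1 to 3 (limma adjusted p = 0.121) and with only the 12 uninjected libraries (0.1165). On chromosome 12, GRM2, a glutamate receptor gene, averaged 16.2 ± 2.81 TPM in HASN and 36.4 ± 10.7 TPM in LASN, and its neighbour ENSGALG00000045878 averaged 10.3 ± 4.27 TPM in HASN and 28.2 ± 6.28 TPM in LASN. The GRM2 groups did not overlap, but its call ended under median-ratio rescaling (limma adjusted p = 0.109). Neither gene was called without HASN 1 to 3 (limma adjusted p = 0.0934 for GRM2 and 0.106 for ENSGALG00000045878).

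Among genes without a symbol, ENSGALG00000052196 (chromosome 23, 6036756 to 6053909) was the clearest gene higher in HASN. It had 91.6, 112 and 135 TPM in HASN, against 6.01, 10.3 and 11.6 TPM in LASN. The groups were wide apart, with a log2 fold change of 3.45 ± 0.14 (limma adjusted p = 4.53e-14). ENSGALG00000033498 (chromosome 5) was listed at 0 in 5 of 6 LASN libraries and at 0.269 TPM in LASN replicate 6. In HASN it was at 77.7 to 85.4 TPM in replicates 4 to 6, at 15.8 and 7.94 TPM in replicates 1 and 2 and at 0 in replicate 3. It was called with a limma adjusted p of 0.0263.

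**Figure D4:**
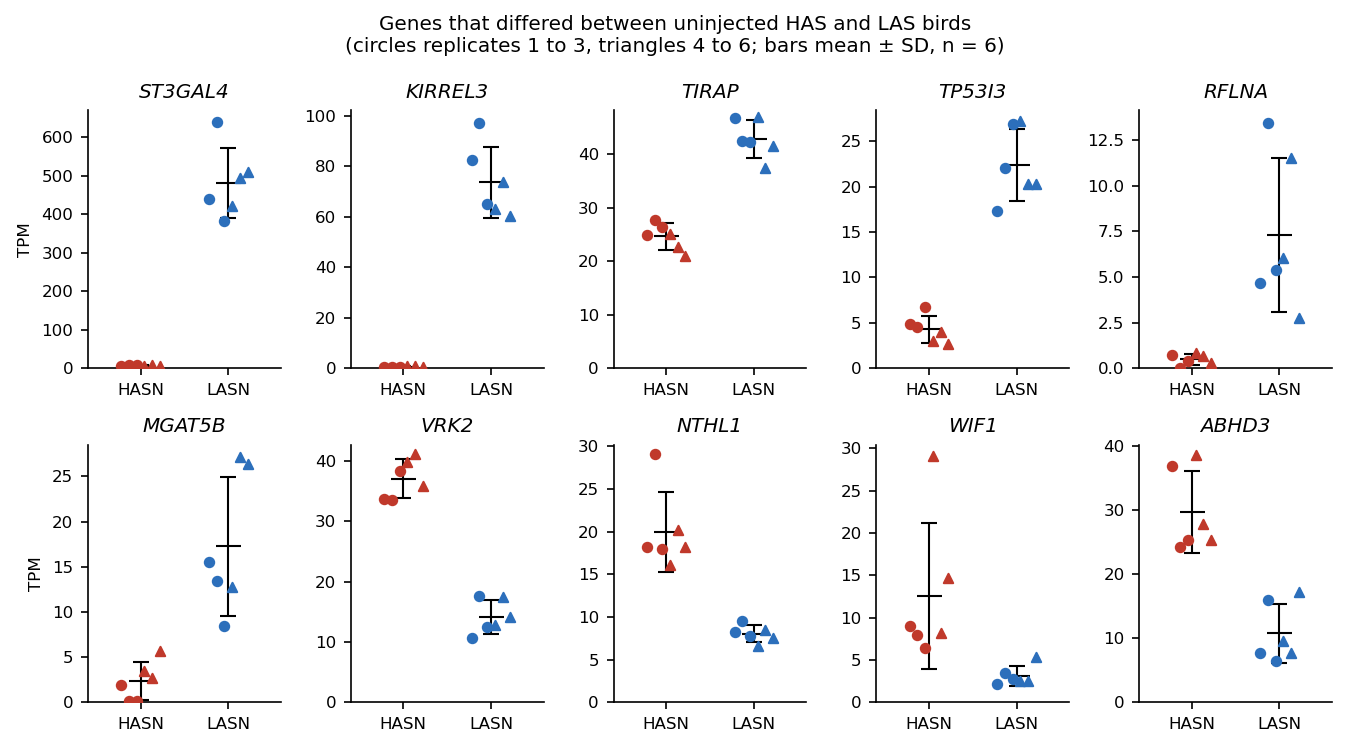
TPM of 10 called genes in each library, HASN (red) left of LASN (blue), with circles for replicates 1 to 3, triangles for 4 to 6 and bars for the mean ± SD (n = 6 each). In every panel each HASN library lies on one side of all LASN libraries: ST3GAL4, KIRREL3, TIRAP, TP53I3, RFLNA and MGAT5B lower in HASN, and VRK2, NTHL1, WIF1 and ABHD3 higher.

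Several enzymes outside these regions were lower in HASN. TP53I3 (chromosome 3), an oxidoreductase induced by p53 in mammals, had 2.63, 4.28 and 6.78 TPM in HASN, against 17.3, 21.2 and 27 TPM in LASN. Its groups did not overlap, with a log2 fold change of -2.17 ± 0.18 (limma adjusted p = 2.27e-08). MGAT5B (chromosome 18), an N-acetylglucosaminyltransferase that branches sugar chains, had 0.131, 2.30 and 5.63 TPM in HASN, against 8.43, 14.5 and 27 TPM in LASN. These groups did not overlap either, with a log2 fold change of -2.63 ± 0.41 (limma adjusted p = 0.000638). BPHL (chromosome 2), a serine hydrolase, averaged 2.85 ± 1.13 TPM in HASN and 12.7 ± 4.51 TPM in LASN (limma adjusted p = 0.000632), and its model overlaps an unnamed gene on the other strand.

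Other enzymes were higher in HASN. NTHL1 (chromosome 14), a DNA glycosylase that removes oxidised pyrimidines, had 16, 18.2 and 29.1 TPM in HASN, against 6.65, 8.04 and 9.52 TPM in LASN. The groups did not overlap, with a log2 fold change of 1.19 ± 0.15 (limma adjusted p = 6.69e-05). NUDT1, also on chromosome 14, which clears oxidised purine nucleotides, averaged 129 ± 30.8 TPM in HASN and 68.0 ± 15.2 TPM in LASN (limma adjusted p = 0.0143). The kinase gene VRK2 (chromosome 3) had 33.5, 37.1 and 41.2 TPM in HASN, against 10.7, 13.5 and 17.7 TPM in LASN, with no overlap and a log2 fold change of 1.34 ± 0.20 (limma adjusted p = 0.000306). ABHD3 (chromosome 2), a phospholipase, averaged 29.6 ± 6.36 TPM in HASN and 10.8 ± 4.62 TPM in LASN, and PCSK4 (chromosome 28), a proprotein convertase, averaged 2.96 ± 1.30 TPM in HASN and 0.476 ± 0.260 TPM in LASN. Neither gene's groups overlapped. ABHD3 and NUDT1 just missed the threshold without HASN 1 to 3 (limma adjusted p = 0.0528 for each), and PCSK4 was at 0.104 there.

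Among secreted and signalling proteins, WIF1 (chromosome 1), an inhibitor of Wnt ligands, had 6.43, 8.63 and 29.1 TPM in HASN, against 2.20, 2.68 and 5.37 TPM in LASN. All HASN libraries lay above all LASN libraries, with HASN replicate 4 the highest, and the log2 fold change was 1.57 ± 0.27 (limma adjusted p = 0.00234). BPIFB3 (chromosome 20), of the family of bactericidal permeability increasing proteins, averaged 2.34 ± 0.993 TPM in HASN and 11.3 ± 3.46 TPM in LASN (log2 fold change -1.89 ± 0.25, limma adjusted p = 0.000101). CFC1 (chromosome Z), a co-receptor of Nodal signalling in embryos, averaged 2.95 ± 0.503 TPM in HASN and 12 ± 5.01 TPM in LASN (log2 fold change -1.65 ± 0.22, limma adjusted p = 0.000101). Neither pair of groups overlapped. WIF1 missed the threshold when the 12 uninjected libraries were fitted alone (limma adjusted p = 0.0631).

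Among membrane and cytoskeletal genes, RFLNA (chromosome 15), which binds filamin, had 0, 0.506 and 0.847 TPM in HASN, against 2.74, 5.71 and 13.5 TPM in LASN. PACSIN3 (chromosome 5), a membrane-bending protein of endocytosis, had 0.937, 2.26 and 3.6 TPM in HASN, against 5.65, 8.90 and 10.4 TPM in LASN. Both had groups without overlap, with log2 fold changes of -2.36 ± 0.29 for RFLNA and -1.56 ± 0.21 for PACSIN3 (limma adjusted p = 2.86e-05 and 0.000109). CLCN1 (chromosome 1), a chloride channel best known in skeletal muscle, had 0.503, 1.16 and 3.22 TPM in HASN, against 4.17, 19.0 and 23.1 TPM in LASN (log2 fold change -2.47 ± 0.46, limma adjusted p = 0.00438). LASN replicates 1 and 2 stood near the HASN range for CLCN1, at 4.41 and 4.17 TPM. ANKRD33 (chromosome 33), an ankyrin repeat protein, was the only gene below 0.5 TPM in every library of 1 group and at least 1 TPM in every library of the other, at 0.0831 to 0.461 TPM in HASN and 2.17 to 4.63 TPM in LASN. TMEM158, a membrane protein gene, averaged 2.98 ± 0.917 TPM in HASN and 0.831 ± 0.439 TPM in LASN (limma adjusted p = 0.00377).

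Of the 57 called genes covered by the naming rule, 41 kept their call whichever single library was left out and 16 did not. These fits still held the injected libraries. With only the 12 uninjected libraries fitted, 33 of the 57 were called, and without HASN 1 to 3 together 37 were. The gut hormone gene MLN (motilin) averaged 14.7 ± 7.27 TPM in HASN and 35.5 ± 12.5 TPM in LASN, and its call ended without HASN replicate 3 or LASN replicate 1 (limma adjusted p = 0.0582 and 0.0503). The T cell transcription factor gene TCF7 averaged 2.77 ± 2.07 TPM in HASN and 8.43 ± 3.92 TPM in LASN, and its call ended without HASN replicate 1, 2 or 3 or LASN replicate 5 (limma adjusted p = 0.0510 to 0.0569) and without HASN 1 to 3 together (0.333). Its HASN levels were 0.780 to 1.54 TPM in replicates 1 to 3 and 3.37 to 6.13 TPM in replicates 4 to 6. ASS1, an enzyme of arginine synthesis, averaged 81.3 ± 15.5 TPM in HASN and 38.4 ± 22.4 TPM in LASN, and its call ended without HASN replicate 4 or LASN replicate 1, 2 or 3 (limma adjusted p = 0.0540 to 0.0774). The histone gene H2A-VII_6 averaged 48.5 ± 19.9 TPM in HASN and 21.3 ± 4.90 TPM in LASN, and its call ended without HASN replicate 1 or 3 or LASN replicate 2 (limma adjusted p = 0.0549 to 0.0579) and without HASN 1 to 3 together (0.334). The calls of MLN, TCF7, ASS1 and H2A-VII_6 also ended with only the 12 uninjected libraries fitted (limma adjusted p = 0.112, 0.148, 0.169 and 0.132). Those of MLN and H2A-VII_6 ended under median-ratio rescaling too (limma adjusted p = 0.176 and 0.0518).

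The chemokine genes were less stable still. CCL4_1 averaged 35.6 ± 13.9 TPM in HASN and 13 ± 4.72 TPM in LASN, and its call ended without any 1 of HASN replicates 1 to 4 or LASN replicates 1 and 3 to 6 (limma adjusted p = 0.0521 to 0.104). CXCL14 averaged 28.9 ± 10.5 TPM in HASN and 45.9 ± 5.62 TPM in LASN, and its call ended without any 1 library except HASN replicate 5 (limma adjusted p = 0.0528 to 0.129). LAPTM4B, a lysosomal membrane protein gene, averaged 17.8 ± 5.66 TPM in HASN and 7.52 ± 4.03 TPM in LASN, and RAB36, a small GTPase gene, averaged 5.83 ± 2.57 TPM in HASN and 2.12 ± 0.828 TPM in LASN. The calls of LAPTM4B, RAB36, the damage sensor gene DDB2, HHATL and the secreted C1QTNF4 each ended on leaving out any of 9 libraries (limma adjusted p up to 0.130 for LAPTM4B, 0.0930 for RAB36, 0.134 for DDB2, 0.123 for HHATL and 0.103 for C1QTNF4). Leaving out HASN 1 to 3 together, LAPTM4B and RAB36 were called (limma adjusted p = 0.0388 and 0.0153). CCL4_1 (limma adjusted p = 0.380), CXCL14 (0.244), DDB2 (0.386), HHATL (0.401) and C1QTNF4 (0.143) were not. The unnamed genes ENSGALG00000051536 and ENSGALG00000051711 lost their call on leaving out any of 7 libraries, and ENSGALG00000054264, ENSGALG00000005303 and ENSGALG00000033498 any of 8. Of these 5, only ENSGALG00000033498 was called without HASN 1 to 3 together, the limma adjusted p of the others being 0.178 to 0.343. With only the 12 uninjected libraries fitted, none of the 5 was called (limma adjusted p = 0.0539 to 0.171).

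Most functional lists held few or no called genes, where 1.17% of all tested genes were called. At that share a list of this size is expected to hold few calls, so a low count says little about its function. Beyond the MHC lists, the sialyltransferases had 1 of 15 called (ST3GAL4) and the other Golgi glycosyltransferases 1 of 31 (MGAT5B). Their median log2 fold changes were -0.23 and -0.20. The innate receptor list had 1 of 24 called (TIRAP) and the T cell list 1 of 23 (TCF7). The chemokine list had 2 of 25 called, CCL4_1 higher and CXCL14 lower. The antioxidant list had 2 of 41 called, NTHL1 higher and TP53I3 lower, and NTHL1 was the 1 call of 33 in the DNA repair list. The list of peptide and amino acid absorption had 1 of 23 called (ASS1, higher), the enteroendocrine list 1 of 28 (MLN, lower) and the crypt and Wnt list 1 of 35 (WIF1, higher).

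Among metabolic lists, those of lipid synthesis and uptake had no member called by limma, against 1.17% of all tested genes. Their medians were below the -0.19 of all genes. Such medians were not particular to lipid lists. The list of peptide and amino acid absorption had a median of -0.44 and the enteroendocrine list one of -0.39. An unadjusted p below 0.05 was found in 11.7% of all tested genes. Cholesterol and fatty acid synthesis had 0 of 29 called, with a median log2 fold change of -0.56 and 6 members at an unadjusted p below 0.05, and lipid uptake had 0 of 26, with a median of -0.46 and 3 such members. LSS, of cholesterol synthesis, averaged 56.6 ± 24.9 TPM in HASN and 98.9 ± 38.1 TPM in LASN (limma adjusted p = 0.240). FABP2 averaged 5383 ± 1313 TPM in HASN and 8280 ± 1232 TPM in LASN (limma adjusted p = 0.210). Without HASN 1 to 3 the medians were -0.26 for cholesterol synthesis and -0.06 for lipid uptake, against 0.16 for all genes. The smooth muscle and matrix list had 0 of 31 called and a median of -0.40, or -0.29 without HASN 1 to 3. Sugar digestion and transport (0 of 17), brush border (0 of 21) and tight junction genes (0 of 16) had medians of -0.23, -0.15 and -0.09.

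Ribosomal and mitochondrially encoded genes had medians above 0. Of 70 cytosolic ribosomal protein genes, 67 had a log2 fold change above 0, against 26% of all tested genes, with a median of 0.22 and no call under limma, and 7 had an unadjusted p below 0.05, a share below the 11.7% of all tested genes. The 13 mitochondrially encoded genes had a median of 0.29 and the 56 nuclear genes of oxidative phosphorylation one of 0.04, with no call and no unadjusted p below 0.05 in either list. Without HASN 1 to 3 the medians of these lists became -0.03, -0.10 and -0.31, all below the 0.16 of all tested genes. The most abundant genes did not pass the test. COX1 averaged 33490 ± 7098 TPM in HASN and 34022 ± 7025 TPM in LASN, and the apolipoprotein gene APOA1 averaged 22905 ± 12430 TPM in HASN and 21997 ± 6661 TPM in LASN. The limma adjusted p was 0.949 for COX1 and 0.880 for APOA1.

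**Figure D5:**
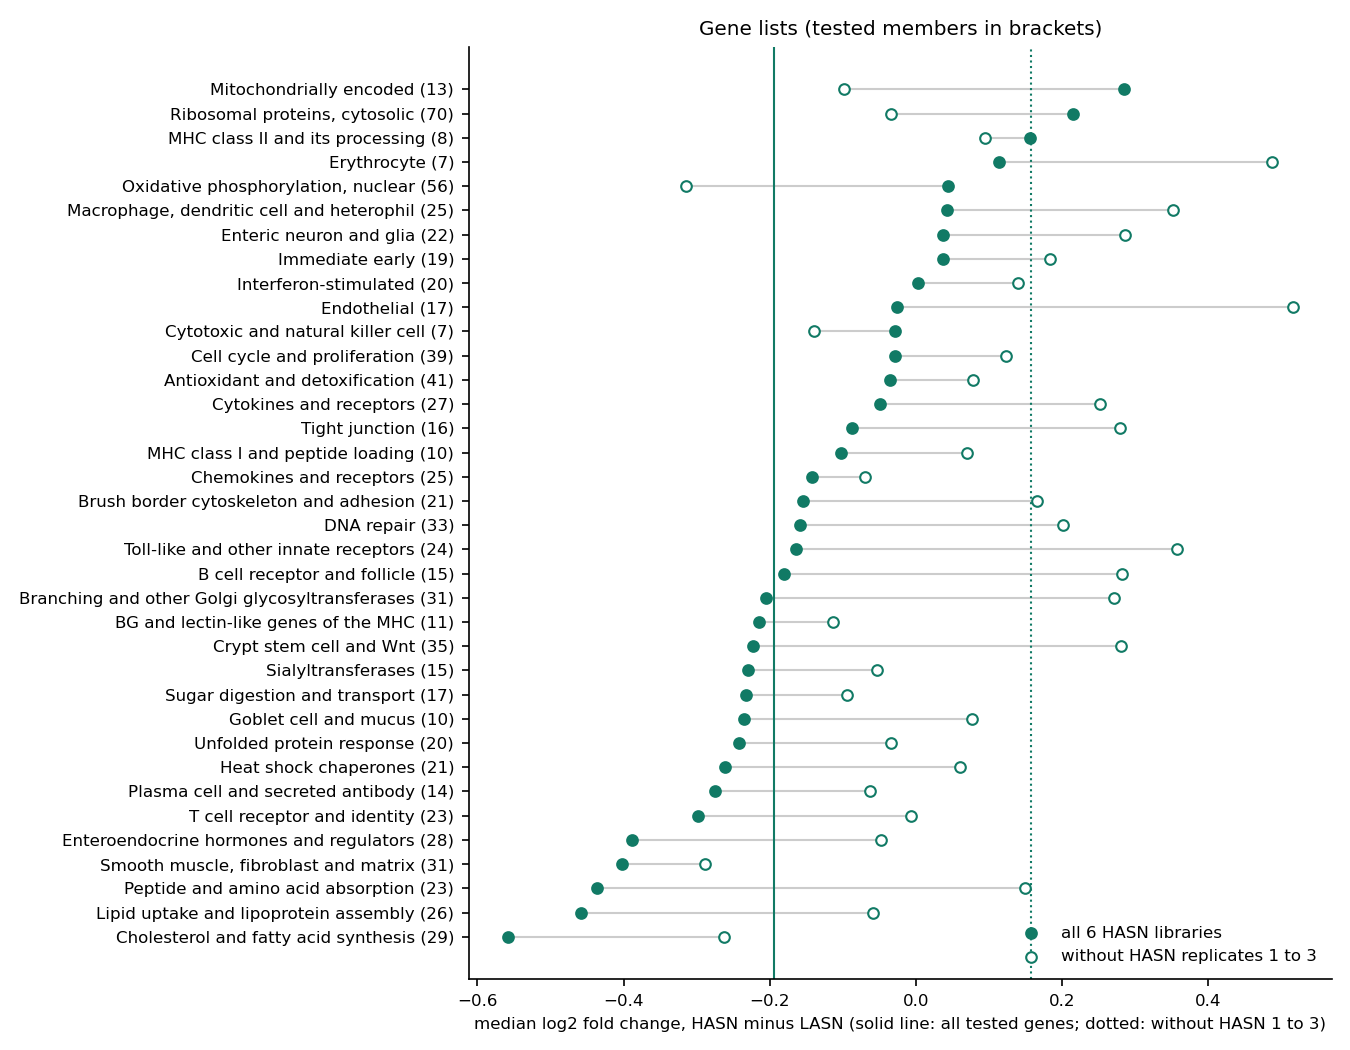
Median log2 fold change (HASN minus LASN) of each gene list with at least 5 tested members, filled with all 6 HASN libraries and open without HASN replicates 1 to 3; vertical lines give all tested genes, at -0.19 (solid) and 0.16 (dotted). Ribosomal and mitochondrially encoded genes lie furthest to the right with all libraries, at 0.22 and 0.29, and move to -0.03 and -0.10 without HASN 1 to 3.

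Of the other immune lists, those of plasma cells, B cells, cytotoxic cells, cytokines, interferon-stimulated genes and macrophages had no member called by limma. Over all tested genes 1.17% were called. The plasma cell list had 0 of 14 called under limma, with 3 members at an unadjusted p below 0.05, against 11.7% of all tested genes, and a median of -0.27. Its joining chain gene JCHAIN, which links secreted IgA and IgM, had 580, 775 and 1391 TPM in HASN, against 972, 1963 and 2499 TPM in LASN. The groups overlapped and the log2 fold change was -1.17 ± 0.30, short of the threshold (limma adjusted p = 0.0535). The limma adjusted p of JCHAIN depended on the setting, from 0.000868 to 0.343 over the alternatives. It was 0.0863 with only the 12 uninjected libraries, 0.159 after median-ratio rescaling and 0.343 without HASN 1 to 3. PIGR, which carries those antibodies across the epithelium, averaged 2405 ± 878 TPM in HASN and 1702 ± 224 TPM in LASN (limma adjusted p = 0.458). The cytotoxic list had 0 of 7 called and 4 members at an unadjusted p below 0.05. Its summed level was 2869 to 3824 TPM in HASN 1 to 3 and 1235 to 1411 TPM in HASN 4 to 6, against 1003 to 1451 TPM in LASN, so the higher level was seen in HASN 1 to 3 and not in HASN 4 to 6. Its protease GZMA averaged 429 ± 183 TPM in HASN and 170 ± 85.3 TPM in LASN (limma adjusted p = 0.103). Unlike the sum, GZMA was at 222 to 682 TPM in HASN 1 to 3 and 266 to 568 TPM in HASN 4 to 6. In LASN it was at 111 to 338 TPM. Its log2 fold change was 1.33, and 1.23 without HASN 1 to 3 (limma adjusted p = 0.305). The chemokine XCL1 averaged 29.1 ± 3.58 TPM in HASN and 50.6 ± 13 TPM in LASN (limma adjusted p = 0.135). The interferon list had 0 of 20 called and no unadjusted p below 0.05.

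The macrophage, dendritic cell and heterophil list had 0 of 25 called under limma, with 4 members at an unadjusted p below 0.05, a share near the 11.7% of all tested genes. Its lysozyme gene LYG2 had 12.4, 42.8 and 115 TPM in HASN, against 1.83, 5.46 and 13.3 TPM in LASN, a log2 fold change of 2.55 ± 0.69 (limma adjusted p = 0.0737) that passed the threshold without HASN 1 to 3 (0.0259). The trefoil peptide TFF2 of the goblet cell list averaged 30.6 ± 23.0 TPM in HASN and 4.90 ± 2.93 TPM in LASN (limma adjusted p = 0.167). The glial gene S100B averaged 11.8 ± 4.03 TPM in HASN and 85.9 ± 80.3 TPM in LASN (limma adjusted p = 0.0926), with LASN libraries from 8.80 to 217 TPM.

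The same line contrast was measured in other birds, HASI against LASI, in a fit of the 12 injected libraries alone. That fit called 68 genes (0.512%), and 1235 had an unadjusted p below 0.05 (9.30%). Of the 156 genes called between HASN and LASN, 152 had the same sign in injected birds, and 103 (66.0%) had the same sign and an unadjusted p below 0.05. Among tested genes not called in uninjected birds, 6.72% had the same sign and an unadjusted p below 0.05. The 156 calls used a spread estimated over all 24 libraries, injected birds included, so these shares are not fully independent of the calls. By the adjusted test, 43 of the 156 were called in both. ST3GAL4 had a log2 fold change of -5.34 between HASI and LASI, BLB1 -3.50, BF1 -1.45, BG8 -2.57, BF2 0.88 and TP53I3 -1.71, and limma called each. ANKRD33 was at -1.62, VRK2 at 1.21, WIF1 at 1.02 and ENSGALG00000052196 at 3.2, and each of these was called there too.

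The difference between the line contrasts, uninjected minus injected, was tested directly as an interaction of line and injection. Limma called 0 genes after adjustment, with 606 at an unadjusted p below 0.05 (4.56%). Of the 156 genes, 51 had such a p, and the lowest adjusted p among them was 0.736. The 156 genes were chosen by their uninjected contrast, which is part of the interaction. That choice raises their share with a low p, so no conclusion is drawn from it. RFLNA had a log2 fold change of -2.36 in uninjected and -0.44 in injected birds, CLCN1 -2.47 and 0.01, TMEM158 1.13 and -0.03, and KIRREL3 -5.60 and -4.05. None of these contrasts is shown to differ between uninjected and injected birds.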

How the data were processed

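RNA sequencing of the jejunum of 24 chickens was deposited by the authors as 1 table of TPM, a length- and library-scaled transcript abundance, 1 column per library, for 15618 genes. The unit follows from the deposited values: fractional, at least 0, and with near-equal column sums. The genome build was galGal6, per the submitters' processing notes. The aligner, counting tool, annotation release and use of strand are not given in the sources used here. TPM keeps no read counts, so depth and counting error are unknown, and 0 columns were left unused.

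Genes at 0.5 TPM or more in at least 6 libraries were tested as log2(TPM + 1). The model gave each of the 4 groups its own mean over all 24 libraries (R 4.3.3, limma 3.58.1), with an intensity trend, robust moderation and 20 residual degrees of freedom. Tests were two-sided with Benjamini-Hochberg adjustment over all tested genes. HASI against LASI was fitted on its own 12 libraries, and the interaction on all 24. The procedure was tested on simulated data.

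Named genes were the 15 called symbols at each end with a mean of at least 1 TPM, called members of 37 gene lists or, for a list without any, the 2 members with the smallest p, 10 fixed genes, 3 called genes without a symbol at each end, called genes that are map neighbours, and the 8 most abundant genes. Genes outside that rule (DCPS, MHCIY, CHIR-A2, CHIR-B3, CHIR-B5, tissue markers and those of the other observations) were chosen after their values were seen. Of the 113 genes kept under the rule, those not named in the text enter only the counts, and 1 further gene that met it is not reported here. The comparison, lists and rule were chosen with earlier results of these data known.

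Alternatives were a fold threshold, a pseudocount of 0.1, a 1 TPM filter or none, rescaling by median ratios, only the 12 uninjected libraries, array weights, the replicate number as a block, a covariate (W chromosome level or span slope), and omission of each library in turn. Leaving out HASN 1 to 3 together, with or without the injected libraries, the slope with only the uninjected libraries, and gene-by-gene array weights, since the default weights did not converge, were chosen after seeing the data.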

Additional observations from a re-analysis of the deposited data

Results flagged for a closer look

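Within the groups of 6, the highest or lowest library was tested for standing apart from the others by Dixon's gap ratio. It did so in 17 of 258 groups of values (6.59%), and chance flags about 1 in 20 groups of normally distributed values. Where all other libraries of a group were at 0, as for ENSGALG00000051711 in HASN and ENSGALG00000033498 in LASN, any value above 0 was flagged. FABP2 was counted both as a named gene and as a marker. In the MHC region, LASN replicate 3 was the lowest for ENSGALG00000050131 at 38.9 TPM, with the other LASN libraries at 58.5 to 68.9 TPM, and for ENSGALG00000039480 at 108 TPM, with the others at 150 to 181 TPM. LASN replicate 2 was the lowest for BF1 at 2803 TPM, with the others at 3163 to 3347 TPM. HASN replicate 4 was the highest for ENSGALG00000052876 at 5.04 TPM, with the other HASN libraries at 0.864 to 1.46 TPM, and for ZNF226L at 2.50 TPM, with the others at 0.150 to 0.717 TPM.

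On chromosome 6, LASN replicate 4 was listed at 0 for ENSGALG00000031497, with the other LASN libraries at 3.05 to 6.63 TPM. HASN replicate 4 held 0.0629 TPM of ENSGALG00000051711, the other HASN libraries being listed at 0. LASN replicate 6 held 0.269 TPM of ENSGALG00000033498, the other LASN libraries being listed at 0. The same library was the highest in LASN for ANKRD33 at 4.63 TPM, for the haemoglobin gene HBA1 at 484 TPM and for the ileal bile acid transporter SLC10A2 at 135 TPM, where the other LASN libraries reached 2.85, 51.6 and 6.93 TPM.

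TMEM158 stood apart in HASN replicate 2 at 4.82 TPM, with the other HASN libraries at 2.30 to 2.77 TPM. CCL4_1 was lowest in HASN replicate 6 at 12.4 TPM, with the others at 30.3 to 51.2 TPM, and FOSB was highest in HASN replicate 4 at 3.71 TPM. ERG was lowest in LASN replicate 3 at 1.86 TPM. NDUFA9 and the sugar transporter gene SLC5A1 were lowest in LASN replicate 1, at 83.5 and 951 TPM. None of these patterns was tested further.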

How the results depend on the processing

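The count of 156 called genes (44 higher and 112 lower in HASN) was 67 (20 and 47) with only the 12 uninjected libraries, 282 (118 and 164) after adjustment for each library's span slope, 274 (115 and 159) with both, 87 (25 and 62) at an absolute log2 fold change of at least 1, and 56 (22 and 34) with only the uninjected libraries and without HASN 1 to 3. Without HASN 1 to 3 alone it was 118 (60 and 58), and with median-ratio rescaling 164 (77 and 87). Gene-by-gene array weights gave 7366 (788 and 6578), with a median log2 fold change of -0.43 over all tested genes, against -0.19 in the main fit. Leaving out 1 library gave 104 to 187 called genes, 33 to 43 higher and 70 to 146 lower; the fewest lower calls came without HASN replicate 1 (70), HASN replicate 3 (73) and LASN replicate 5 (75). A pseudocount of 0.1, no filter, a 1 TPM filter, default array weights and the W level stayed within 1.5 times. Similar counts did not mean the same genes. Of the 156 genes, 107 were called after median-ratio rescaling and 107 with default array weights. For the interaction, no filter gave 1 called gene in place of 0. The causes of these shifts were not tested.

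The replicate numbers were not treated as pairs in the main fit. Same-numbered HASN and LASN libraries had deviations correlated at -0.16 to 0.58, and HASN libraries correlated best with their own number only for 3 and 5. The split within HASN enters these correlations, so they cannot settle whether the birds were paired. With the number as a block, 180 genes were called between HASN and LASN, and 31 in place of 68 between HASI and LASI. An unadjusted limma p below 0.05 was then found for 2253 genes between HASN and LASN, against 1558 in the main fit.

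No called named gene changed sign under any setting, and 19 of 57 kept their call under all of them apart from the fold threshold. The 57 exact permutation tests of these genes all gave p below 0.05. The genes were chosen by their calls in the same libraries, so this is no independent support. Signs turned for 10 named genes that were not called. Without HASN 1 to 3, with or without the injected libraries, the log2 fold change was 0.015 for PLCG2, 0.0060 for CLCA1, 0.33 for PARD6B, 0.44 for ERG, -0.13 for COII and -0.10 for COX3. ERG was at 0.055 with only the uninjected libraries and the slope. Median-ratio rescaling gave 0.15 for FABP1, 0.16 for APOA1 and 0.21 for COX1, default array weights 0.16 for APOA1 and 0.031 for COX1, and gene-by-gene weights 0.21 for FABP1, 0.47 for APOA1, 0.13 for COX1 and -0.059 for STAB1. Leaving out 1 library gave -0.31 to 0.10 for FABP1, -0.26 to 0.10 for APOA1 and -0.13 to 0.093 for COX1. Depth is unknown, so what it limits among low genes could not be judged.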

Other observations

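Some called genes without a symbol overlap models of antigen receptors or T cell markers. ENSGALG00000043654 on chromosome 27, whose model overlaps the immunoglobulin heavy chain variable gene IGHVL, averaged 48.2 ± 11.2 TPM in HASN and 97.8 ± 31.4 TPM in LASN (limma adjusted p = 0.0312), with no overlap between the groups. ENSGALG00000045960, which also overlaps IGHVL, averaged 0.148 TPM in HASN and 0.971 TPM in LASN (limma adjusted p = 0.00467). ENSGALG00000052476 on chromosome 4, whose model overlaps 3 CD8A copies, averaged 4.60 ± 1.66 TPM in HASN and 1.36 ± 0.835 TPM in LASN (limma adjusted p = 0.0143). Overlapping models can share reads, so these values are uncertain. None of the 3 was called without HASN 1 to 3 (limma adjusted p = 0.0673 for ENSGALG00000043654, 0.0656 for ENSGALG00000045960 and 0.222 for ENSGALG00000052476).

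The heme synthesis gene ALAS2 (chromosome 12, 3345428 to 3352328) lies near GRM2 and ENSGALG00000045878. It had a lowest, median and highest level of 115, 128 and 141 TPM in HASN, against 175, 288 and 343 TPM in LASN. The groups did not overlap, but the gene was not called with all 24 libraries (limma adjusted p = 0.0737) and was with only the 12 uninjected ones (0.0164). ENO2, a glycolytic enzyme gene on chromosome 1, averaged 7.13 ± 2.11 TPM in HASN and 17.2 ± 3.41 TPM in LASN (limma adjusted p = 0.000283), and was called between HASI and LASI as well (log2 fold change -1.19). FAM3B, a secreted protein gene also on chromosome 1, averaged 27.6 ± 5.48 TPM in HASN and 64.2 ± 16.9 TPM in LASN (log2 fold change -1.17, limma adjusted p = 0.0011), against a log2 fold change of -0.14 between HASI and LASI, and the clock gene CRY1 averaged 68.3 ± 15.3 TPM in HASN and 115 ± 15.3 TPM in LASN (limma adjusted p = 0.00694, and 0.135 without HASN 1 to 3).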
